A study of Mus musculus with 16 samples.

Results

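The 39 genes described here encode parts of the cardiac sarcomere and of its Z-disc, proteins that tie myofibrils to intermediate filaments and to the cell membrane, muscle LIM and ankyrin repeat proteins linked to the sensing of stretch, and factors of myofibril assembly and turnover. They were chosen by gene symbol, and all 39 were found among the 13842 genes of the count table. All 39 also passed the filter on low counts and so belonged to the 13504 genes tested. PolyA RNA had been sequenced from ventricular tissue of 16 female mice aged 3 months, with 1 library per mouse and 4 mice in each of 4 groups. The groups were untreated DBA/2J mice (DBA controls), DBA/2J mice 2 weeks after a coronary artery was tied off for good (DBA ligated), untreated C57Bl6/N mice (C57 controls) and C57Bl6/N mice 2 weeks after the same ligation (C57 ligated). The labels name no allele, transgene or drug in any group.

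Ligation of a coronary artery starves part of the ventricle of blood and leaves an infarct, and the names of the ligated samples call their tissue remote, that is, away from the infarct. The labels give the tissue as septum with left ventricle, whereas the design text names the septum with the right ventricles, and which of them is right could not be settled from the labels. Controls had no operation, so infarct and surgery cannot be told apart. The sample names of the C57 controls carry C57Bl-6NCR and those of the ligated C57 mice C57Bl-6N, so that ligation and a possible difference in stock cannot be told apart in C57. The samples hold every cell type of the ventricle. In such bulk tissue, fewer cardiomyocytes and less RNA per cardiomyocyte cannot be told apart.

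In the sarcomere, thin filaments of actin slide along thick filaments of myosin. Troponin and tropomyosin open the thin filament to myosin when calcium rises, leiomodin and tropomodulin set its length at the pointed end, and titin spans from the Z-disc to the M-band as a molecular spring. The Z-disc, built on alpha-actinin, anchors thin filaments and titin of neighbouring sarcomeres, and carries many PDZ and LIM domain proteins. Some Z-disc and titin-bound proteins, among them muscle LIM protein and the muscle ankyrin repeat proteins, are known to move to the nucleus or to change in level when heart muscle is stretched or overloaded.

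Levels are given as CPM, counts per M (mega) counts of the library after TMM scaling (trimmed mean of M values), and values in a group are listed for libraries 1 to 4. The DBA ligated values are listed for library 1 and for libraries S40, S41 and S42, whose mouse numbers in the table differ from the labels and which are therefore named by index. Log2 fold changes, and log2 ratios of DBA over C57, are given with their standard error (SE), and a bare value with its SE below is one of these. The adjusted p is that of edgeR's two-sided quasi-likelihood test with Benjamini-Hochberg adjustment over all 13504 genes, a gene is called at an adjusted p under 0.05, and n is 4 libraries per group. The words rose and fell, higher and lower after ligation are used of called genes.

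Library totals ran from 4.92 to 22 M (mega) counts. In all, 3 libraries held fewer than 9 M, namely DBA controls 3 and 4 and C57 control 1, and these 3 are called shallow here. The deviations of their genes from the group mean fell with gene GC content (rank correlation -0.304, -0.477 and -0.341), while in DBA controls 1 and 2 they rose with it (0.457 and 0.507) and in the other 11 libraries they ran from -0.225 to 0.251. The deviations of a gene cancel within its group, so these values cannot tell which libraries of a group carry the shift. Among the 4 DBA controls, 17 of the 39 genes were highest and 9 lowest in control 4, and 9 were highest and 5 lowest in control 3. Where a fit without the 3 shallow libraries ended a call of the 39 genes or moved a called value by over 1.5 times, its value is given beside the result. As controls, that fit kept only libraries 1 and 2 in DBA and libraries 2 to 4 in C57. The part of the smaller number of libraries in a lost call was not tested. The 39 genes together held 6.91 to 8.59% of counts in DBA controls, 6.83 to 7.14% in DBA ligated, 7.48 to 8.02% in C57 controls and 7.32 to 7.92% in C57 ligated libraries.

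Markers of the cell types were read beside these genes. All 10 cardiomyocyte markers (among them Myh6, Myl2, Ryr2 and Atp2a2) were present in every group, and their summed level was 102478 to 120571 CPM in DBA controls, 78790 to 80632 CPM in DBA ligated, 128942 to 136491 CPM in C57 controls and 93760 to 115560 CPM in C57 ligated libraries. The summed level was lower after ligation with no overlap in either strain, and 5 of the 10 markers fell in each (50%). Myh6 alone had mean levels of 49544 and 30607 CPM in DBA controls and ligated mice, and of 48415 and 36760 CPM in C57. The highest log2 fold change among the 10 markers was 0.20 in DBA and 0.17 in C57. Of all genes tested 13.8% fell in DBA and 6.06% in C57. The 6 fibroblast markers summed to 2353 to 2630, 2872 to 3473, 2217 to 2528 and 2608 to 2797 CPM in the same order of groups. For the 5 myofibroblast markers the sums were 1179 to 1455, 1649 to 2244, 381.1 to 472.1 and 655.1 to 1505 CPM. The 6 macrophage markers gave 359.1 to 426.4, 462.2 to 567.3, 247.4 to 279.4 and 328.4 to 450.8 CPM. The sums of these 3 other cell types were higher after ligation in both strains with no overlap. By single gene, 2 fibroblast markers rose in each strain, 2 myofibroblast markers in DBA and 3 in C57, and 4 macrophage markers in each. None of them fell. Of all genes 11.1% rose in DBA and 7.24% in C57. The lowest log2 fold changes were -0.01 in DBA and -0.05 in C57 for fibroblast markers, and -0.27 in DBA for macrophage markers. The 6 endothelial markers summed to 1118 to 1349, 1432 to 1619, 1373 to 1562 and 1561 to 1657 CPM, a sum higher without overlap in DBA. There 3 of the 6 rose, and the lowest log2 fold change was -0.43. The 8 mural cell markers gave 2214 to 2712, 2132 to 2343, 1868 to 2043 and 1584 to 1820 CPM, a sum lower without overlap in C57. Gene by gene the mural list did not move 1 way in C57, where 1 marker rose, 1 fell and the median log2 fold change was 0.16. Acta2 belongs to both the mural and the myofibroblast list. Of 6 atrial markers 5 were tested, with a sum of 287.9 to 678.8, 797.1 to 1114, 149.7 to 247 and 472.7 to 873.9 CPM. Among them the natriuretic peptide gene Nppa rose in both strains, and Myl7, Sln and Mybphl fell in DBA. Within the ligated C57 group the cardiomyocyte sum was 93760 and 97173 CPM in libraries 1 and 3 and 115560 and 113092 CPM in libraries 2 and 4, and the myofibroblast sum 1505 and 1402 against 655.1 and 749 CPM. Of 7 skeletal muscle markers only Tnnt3 and Tnni2 were among the tested genes, at a summed 0.6769 to 2.109 CPM over all libraries, and Myh1, Myh2, Myh4, Myh8 and Actn3 were not. The part of the cell makeup in the results on the 39 genes was not tested.

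The sequence just upstream of the transcript start, where many regulators of muscle genes bind, is shown for 4 genes that carry the comparison of ligation in the strains, 2 that rose in both (Ankrd1 and Synpo2l) and 2 that fell in both (Tnnt2 and Cmya5). The 250 bases before the RefSeq start lie in GRCm38.p6 at chr19:36119845-36120094 on the minus strand for Ankrd1, chr14:20668355-20668604 on the minus strand for Synpo2l, chr1:135836084-135836333 on the plus strand for Tnnt2 and chr13:93144725-93144974 on the minus strand for Cmya5. Each is written 5′ to 3′ along the gene, with motif matches on either strand in capitals.
Ankrd1: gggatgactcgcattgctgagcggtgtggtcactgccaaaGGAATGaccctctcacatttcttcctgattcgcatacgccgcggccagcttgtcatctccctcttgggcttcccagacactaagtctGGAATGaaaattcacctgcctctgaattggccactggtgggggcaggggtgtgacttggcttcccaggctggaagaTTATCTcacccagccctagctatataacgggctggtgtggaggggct
Synpo2l: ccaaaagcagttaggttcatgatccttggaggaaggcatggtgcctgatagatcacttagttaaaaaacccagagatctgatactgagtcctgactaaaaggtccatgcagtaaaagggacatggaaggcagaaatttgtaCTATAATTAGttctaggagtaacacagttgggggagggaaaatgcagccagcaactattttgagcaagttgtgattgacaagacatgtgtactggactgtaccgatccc
Tnnt2: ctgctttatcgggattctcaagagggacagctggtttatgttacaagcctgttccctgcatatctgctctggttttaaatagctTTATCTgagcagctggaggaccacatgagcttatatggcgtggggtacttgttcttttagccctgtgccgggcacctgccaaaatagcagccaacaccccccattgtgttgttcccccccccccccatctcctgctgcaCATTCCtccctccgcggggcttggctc
Cmya5: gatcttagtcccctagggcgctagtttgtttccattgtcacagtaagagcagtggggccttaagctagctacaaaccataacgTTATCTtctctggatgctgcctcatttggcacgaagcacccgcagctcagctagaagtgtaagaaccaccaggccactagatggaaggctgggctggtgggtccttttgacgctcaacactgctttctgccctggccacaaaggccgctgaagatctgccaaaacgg

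The motifs searched were the M-CAT element (GGAATG), known to bind TEAD factors, the GATA element (AGATAA), and the CArG box of SRF and the MEF2 site, given by name. Ankrd1 held 2 M-CAT matches, which began 210 and 123 bases before the start, and a GATA match 47 bases before it. Synpo2l held a MEF2 match 109 bases before the start, Tnnt2 a GATA match at 166 and an M-CAT match at 27 bases, and Cmya5 a GATA match at 167 bases. None of these matches overlapped another. RefSeq windows were matched for 33 of the 39 genes, all but Cryab, Lmod3, Myom2, Tcap, Trim55 and Xirp1. Where a gene had several windows, as Synpo2l and Tnnt2 with 2 each, that with the start nearest to the gene's start in the count table was used. That RefSeq start lay 48 bases from it for Synpo2l. For Fhl1, whose window is among those with a CArG box, it lay 47922 bases away. M-CAT letters were in 8 of the 33 windows (24.2%) and in 12.6% of all 32851 windows, GATA letters in 5 (15.2%) and 9.99%, CArG boxes in 4 (12.1%) and 1.47%, and MEF2 sites in 6 (18.2%) and 2.92%. A match says only that the letters are in the window.

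Per kb of gene length, the 39 genes spanned about 3 orders of size in C57 controls. The troponin genes Tnnt2 and Tnni3 were highest, with 7752 ± 2101 and 7275 ± 1319 mean CPM per kb ± SD, before Tpm1 with 3820 ± 815.5 and Tnnc1 with 3440 ± 361.3. The SDs of Tnnt2 and Tnni3 overlapped, as did those of Tpm1 and Tnnc1. A middle group from Tcap (1511 ± 308.1) through Cryab (1272 ± 85.15), Actn2 (1084 ± 67.72), Des (878.7 ± 97.91) and Ankrd1 (872.3 ± 170.3) followed. Actn1 (10.85 ± 1.09), Tpm2 (10.53 ± 3.2) and Pdlim3 (6.84 ± 0.4304) were lowest, and the first 2 of them did not differ beyond their SD. Actn2, the alpha-actinin of striated muscle, and Actn1, the alpha-actinin of non-muscle cells, thus stood about 2 orders of size apart in the same tissue.

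**Figure D1:**
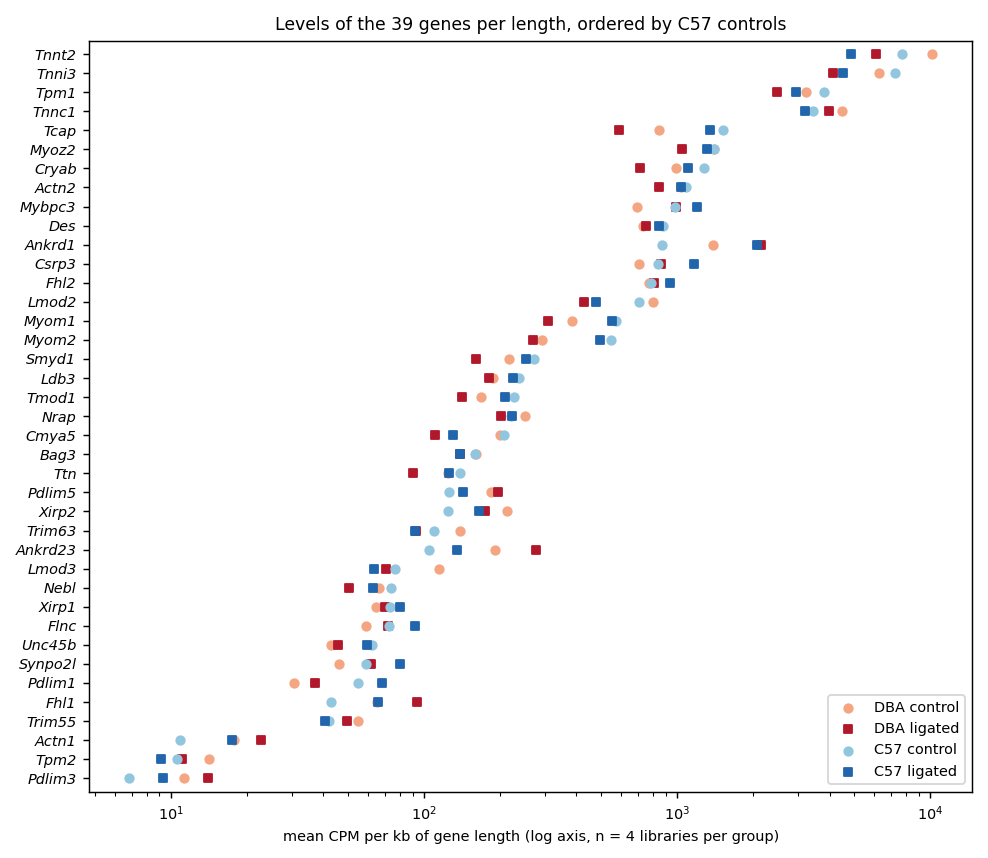
Mean level of each of the 39 genes in CPM per kb of gene length (x axis, log scale), with 1 row per gene ordered by C57 controls and 1 marker per group (n = 4 libraries, no error shown). Tnnt2 stands highest at 7752 CPM per kb in C57 controls and Pdlim3 lowest at 6.84, and the markers of Ankrd1 and Ankrd23 lie further apart between groups than those of most genes.

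After ligation 5 of the 8 thin filament genes and 5 of the 11 Z-disc genes fell in DBA, and 3 of the 5 stretch and LIM genes rose in each strain. In DBA, 6 of the 39 genes rose and 15 fell (21 called, 53.8%), beside 24.9% of all genes tested, 11.1% higher and 13.8% lower. In C57, 6 rose and 4 fell (25.6%), beside 13.3% of all genes, 7.24% higher and 6.06% lower. The median log2 fold change of the 39 genes was -0.21 in DBA and -0.06 in C57, where all genes had medians of 0.03 and 0.02. Ankrd1, Fhl1, Actn1 and Synpo2l rose in both strains (66.7% of the 6 that rose in each). Tnnt2, Tnni3, Nebl and Cmya5 fell in both (26.7% of those that fell in DBA and 100% of those in C57). For 35 of the 39 genes the sign of the log2 fold change was the same in both strains, and the share over all genes was not computed. The sign turned for 6 of the 39 genes in DBA and 4 in C57 when the shallow libraries were left out. Without the 3 shallow libraries 3 genes rose (Ankrd1, Mybpc3 and Synpo2l) and 2 fell (Cmya5 and Nebl) in DBA. Of all genes 432 and 518 did so, down from 1501 and 1859 with all libraries. In C57 7 rose and 5 fell, with Pdlim1 and Lmod2 newly called, beside 1522 and 1307 of all genes, up from 978 and 818. With library totals as the only scaling the median of all genes moved by 0.16 in DBA and 0.11 in C57, the higher share of all calls went from 44.7 to 79.1% and from 54.5 to 79.8%, and the split of the 39 genes became 10 higher and 8 lower in DBA and 11 and 2 in C57. An offset for GC content moved the higher share to 32.5% and 39.8%, with 2 of the 39 genes higher and 17 lower in DBA and 6 and 4 in C57. In the authors' deposited table the same numbers passed a false discovery rate of 0.05, with 6 higher and 15 lower in DBA and 6 higher and 4 lower in C57.

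**Figure D2:**
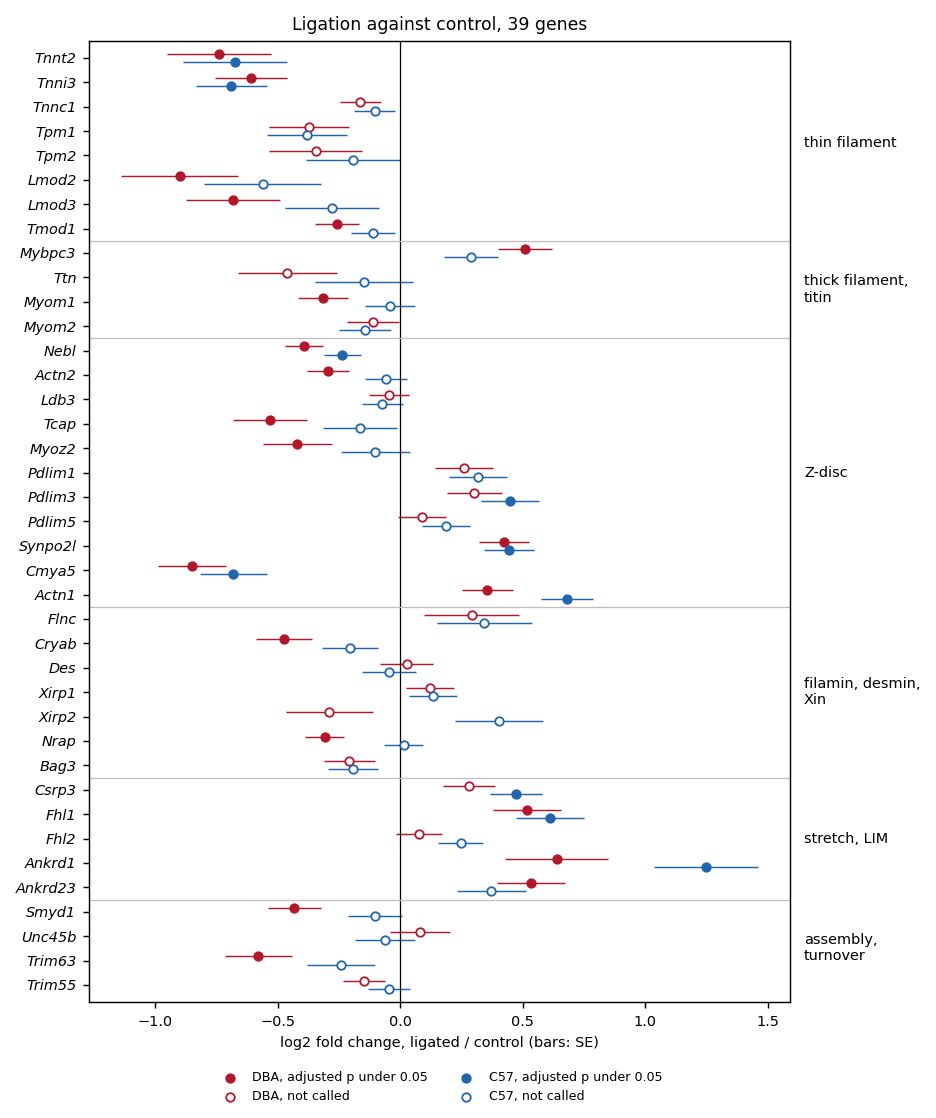
Log2 fold change of ligated over control libraries (x axis, bars are the SE) for each of the 39 genes, DBA in red and C57 in blue, grouped by role, with filled points called at an adjusted p under 0.05. The thin filament genes lie left of 0 in both strains, 7 points of them filled, and the 5 stretch and LIM genes lie right of 0, with Ankrd1 in C57 furthest at 1.25.

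Of the 8 thin filament genes, 5 fell in DBA and 2 in C57, and none rose, with list medians of -0.49 and -0.33. Tnnt2 (chr1:135836334-135852268), the troponin subunit that binds tropomyosin, had 10856, 7825, 14038 and 18287 CPM in DBA controls, 7765, 8936, 7126 and 6709 CPM in DBA ligated, 12985, 10665, 7817 and 7355 CPM in C57 controls and 5351, 5911, 6208 and 6853 CPM in C57 ligated libraries. It was lower in both strains, with log2 changes of -0.74 ± 0.21 (SE, adjusted p = 0.0207) in DBA and -0.67 ± 0.21 (SE, adjusted p = 0.0446) in C57, and the groups overlapped in DBA but not in C57. Its change was -0.29 (adjusted p = 0.255) in DBA and -0.50 (adjusted p = 0.0212) in C57 without the shallow libraries. The DBA call of Tnnt2 was also lost without DBA control 3 (adjusted p = 0.0648), DBA control 4 (0.0719), DBA ligated S41 (0.0605) or S42 (0.0659) alone. Leaving out any of 10 of the 16 libraries ended the C57 call, most of all C57 control 1 (0.158), C57 ligated 1 (0.14) and C57 control 2 (0.111). Tnni3 (chr7:4518308-4522443), the cardiac inhibitory troponin subunit, had 5466, 4191, 5815 and 5210 CPM in DBA controls, 3448, 3679, 3309 and 3123 CPM in DBA ligated, 7283, 6505, 5042 and 5150 CPM in C57 controls and 2895, 4178, 3402 and 4396 CPM in C57 ligated libraries. The groups did not overlap in either strain, and Tnni3 fell by 0.61 on the log2 scale in DBA (SE 0.15, adjusted p = 0.00963) and by 0.69 in C57 (SE 0.15, adjusted p = 0.00679). It kept its call with any library left out, and without the shallow libraries the values were -0.51 (adjusted p = 0.0541) in DBA and -0.58 (adjusted p = 0.00873) in C57.

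The leiomodins and tropomodulin, which cap or extend the pointed end of the thin filament, were lower in DBA. Lmod2 had 1203, 795.9, 1718 and 2591 CPM in DBA controls and 774 to 928.5 CPM in DBA ligated libraries, and Lmod3 had 196.4, 167.8, 255.8 and 402.4 CPM against 145.7 to 168.5 CPM. Both genes were highest in the shallow DBA controls 3 and 4, and the groups overlapped. Lmod2 changed by -0.90 ± 0.24 (SE, adjusted p = 0.0142) in DBA, and without the shallow libraries by -0.24 (adjusted p = 0.253). Lmod3 changed by -0.68 ± 0.19 (SE, adjusted p = 0.019), and without the shallow libraries by -0.20 (adjusted p = 0.266). The call of Lmod3 was lost without DBA control 3 (adjusted p = 0.0525), DBA control 4 (0.0517) or DBA ligated S42 (0.0586). Tmod1 had 459, 412.9, 535.1 and 527.3 CPM in DBA controls, 390.7, 415.3, 428.4 and 383.1 CPM in DBA ligated, 700.4, 693.6, 590.5 and 612.3 CPM in C57 controls and 610.6, 616, 575.5 and 602.2 CPM in C57 ligated libraries. Its DBA change was -0.26 ± 0.09 (SE, adjusted p = 0.0466), with groups that overlapped, and without the shallow libraries -0.11 (adjusted p = 0.421). This call held only with DBA control 1, DBA control 2, C57 control 1 or C57 control 3 left out, and the other 12 omissions gave adjusted p values up to 0.158, the highest without DBA control 3. In C57 none of the 3 was called, with -0.56 ± 0.24 (SE, adjusted p = 0.121) for Lmod2, -0.28 ± 0.19 (SE, adjusted p = 0.346) for Lmod3 and -0.11 ± 0.09 (SE, adjusted p = 0.425) for Tmod1, although Lmod2 was called without the shallow libraries (-0.44, adjusted p = 0.0164). Tnnc1, the calcium-binding troponin subunit, and the tropomyosins Tpm1 and Tpm2 were called in neither strain.

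**Figure D3:**
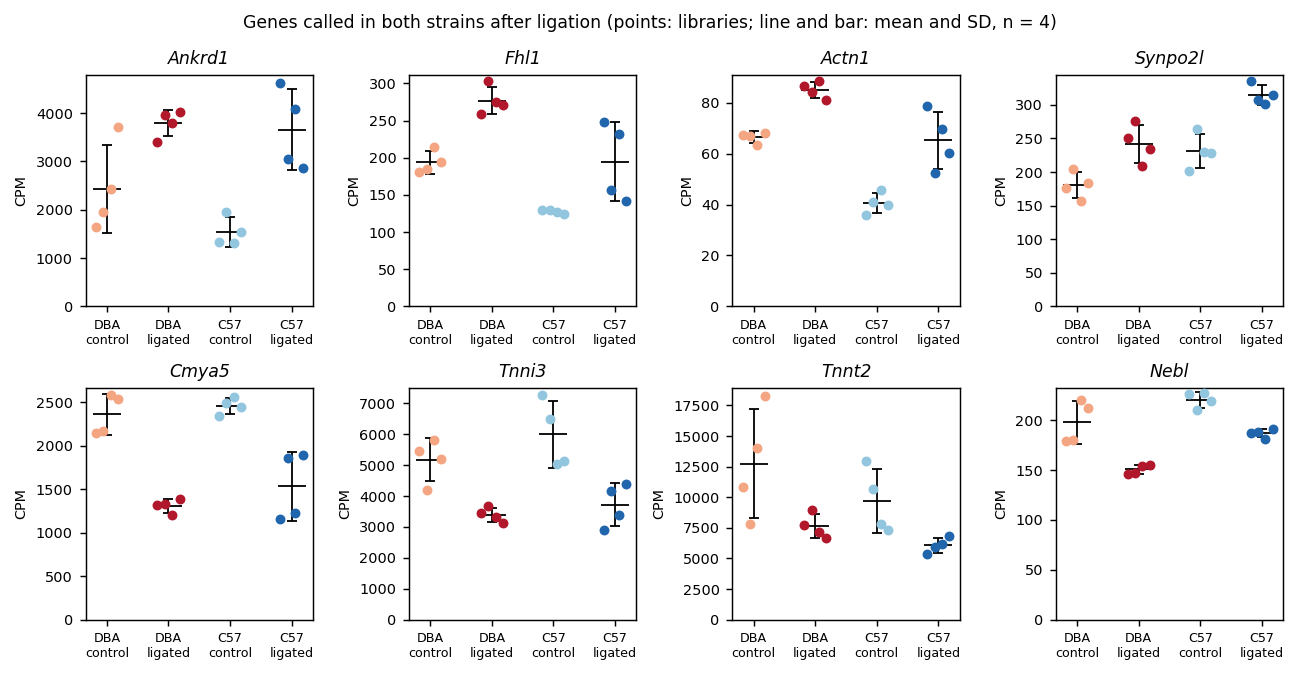
CPM of the 8 genes called in both strains (y axis from 0, 1 panel per gene), with 1 point per library and the mean and SD of each group of 4 as a line and bar. Ankrd1, Fhl1, Actn1 and Synpo2l in the upper row are higher and Cmya5, Tnni3, Tnnt2 and Nebl in the lower row are lower in ligated libraries, and in DBA the groups overlap for Ankrd1 and Tnnt2.

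Among the 4 thick filament and titin genes, Mybpc3 rose and Myom1 fell in DBA, and none was called in C57. Mybpc3, cardiac myosin-binding protein C, had 3094, 3270, 2469 and 2656 CPM in DBA controls, 4028, 3881, 4172 and 4291 CPM in DBA ligated, 3307, 3834, 4560 and 4535 CPM in C57 controls and 5087, 5231, 4650 and 4876 CPM in C57 ligated libraries. All 4 DBA ligated values lay above the DBA controls. Mybpc3 changed by 0.51 ± 0.11 (SE, adjusted p = 0.00651) in DBA and 0.29 ± 0.11 (SE, adjusted p = 0.0877) in C57, and the DBA value was 0.36 (adjusted p = 0.0338) without the shallow libraries. Under the GC offset the DBA call of Mybpc3 was lost (adjusted p = 0.0987). Myom1 encodes myomesin, the M-band protein that bridges thick filaments. It had 1985, 1788, 2293 and 2535 CPM in DBA controls, 1719, 1810, 1651 and 1735 CPM in DBA ligated, 3570, 3306, 2922 and 3018 CPM in C57 controls and 3032, 3012, 3118 and 3298 CPM in C57 ligated libraries. The DBA groups overlapped, and the change in DBA was -0.31 ± 0.10 (SE, adjusted p = 0.0333), or -0.13 (adjusted p = 0.362) without the shallow libraries. Leaving out DBA control 3 (adjusted p = 0.102), DBA control 4 (0.103), DBA ligated 1 (0.0754), S41 (0.0931) or S42 (0.0775) ended this call. In C57 Myom1 stood at -0.04 ± 0.10 (SE, adjusted p = 0.814). Titin (Ttn) and the second myomesin, Myom2, were called in neither strain.

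Of the 11 Z-disc genes, 2 rose and 5 fell in DBA, and 3 rose and 2 fell in C57. Actn1, the non-muscle alpha-actinin, was counted with this list and is among those that rose in each strain. Cmya5 (chr13:93040715-93144724), myospryn, a large protein that binds alpha-actinin and desmin, had 2147, 2173, 2585 and 2540 CPM in DBA controls, 1320, 1332, 1200 and 1383 CPM in DBA ligated, 2341, 2489, 2560 and 2449 CPM in C57 controls and 1163, 1860, 1222 and 1890 CPM in C57 ligated libraries. Neither strain's groups overlapped. Cmya5 changed by -0.85 ± 0.14 (SE, adjusted p = 0.00257) in DBA and -0.68 ± 0.14 (SE, adjusted p = 0.00552) in C57, and it was called under every alternative run in both strains. Nebl (chr2:17346734-17731068), nebulette, which links thin filaments to the Z-disc, had 179.2, 180.2, 220.8 and 212 CPM in DBA controls, 145.9, 147.3, 154.4 and 155.2 CPM in DBA ligated, 226, 209.9, 227.1 and 218.9 CPM in C57 controls and 187.4, 188.2, 181.7 and 191.7 CPM in C57 ligated libraries. It fell by 0.39 on the log2 scale in DBA (SE 0.08, adjusted p = 0.00451), with no overlap, was called there under every alternative run and stood at -0.26 (adjusted p = 0.0318) without the shallow libraries. The C57 change, -0.24 ± 0.08 (SE, adjusted p = 0.04961), also showed no overlap, but the call was lost with any of 12 libraries left out, up to an adjusted p of 0.128 without C57 ligated 3, and held without any 1 of the DBA controls.

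Actn2, Tcap and Myoz2 fell in DBA and were not called in C57, and the difference between the strains' responses was called for none of them. Actn2 had 3075, 2649, 3328 and 3358 CPM in DBA controls and 2521, 2440, 2544 and 2615 CPM in DBA ligated libraries, with no overlap. Its DBA change was -0.29 ± 0.09 (SE, adjusted p = 0.0209), or -0.18 (adjusted p = 0.189) without the shallow libraries, and its C57 change -0.06 ± 0.08 (SE, adjusted p = 0.669). The DBA call was lost without DBA control 3 (adjusted p = 0.0754), DBA control 4 (0.0522), DBA ligated 1 (0.0526), S40 (0.0538) or S41 (0.0528). Tcap, telethonin, which caps the titin end in the Z-disc, had 776.5, 780, 822.7 and 840.6 CPM in DBA controls, 518.9, 670.2, 549.4 and 489 CPM in DBA ligated, 1048, 1372, 1703 and 1608 CPM in C57 controls and 1117, 1547, 1449 and 1004 CPM in C57 ligated libraries. The DBA groups were apart and the C57 groups overlapped. Tcap changed by -0.53 ± 0.15 (SE, adjusted p = 0.0203) in DBA and -0.16 ± 0.15 (SE, adjusted p = 0.488) in C57, and the DBA value was -0.48 (adjusted p = 0.0718) without the shallow libraries. Leaving out DBA control 3 (adjusted p = 0.0578), DBA ligated 1 (0.0574), S41 (0.055) or S42 (0.0697) ended it. Myoz2, a calsarcin that ties calcineurin to alpha-actinin, changed by -0.42 ± 0.14 (SE, adjusted p = 0.0386) in DBA with groups that overlapped, by -0.18 (adjusted p = 0.327) there without the shallow libraries and by -0.10 ± 0.14 (SE, adjusted p = 0.652) in C57. Its DBA call was lost without DBA control 3 (adjusted p = 0.115), DBA control 4 (0.113), DBA ligated 1 (0.0825), S40 (0.0586), S41 (0.104) or S42 (0.0787).

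Synpo2l and Actn1 rose in both strains. Synpo2l (chr14:20659418-20668306), a synaptopodin-like actin-binding protein of the Z-disc, had 176.4, 204.5, 157.4 and 183.9 CPM in DBA controls, 250, 276.5, 208.9 and 233.8 CPM in DBA ligated, 202, 264.4, 229.6 and 229.1 CPM in C57 controls and 336.3, 306.7, 300.8 and 315.5 CPM in C57 ligated libraries. The ligated libraries lay above the controls of the same strain without overlap. Its change was 0.42 ± 0.10 (SE, adjusted p = 0.0102) in DBA and 0.45 ± 0.10 (SE, adjusted p = 0.0104) in C57, and 0.35 (adjusted p = 0.04999) and 0.39 (adjusted p = 0.00751) without the shallow libraries. The GC offset took the adjusted p of Synpo2l to 0.499 in DBA and 0.126 in C57. Actn1 (chr12:80167542-80260371) had 67.44, 67.09, 63.25 and 68.3 CPM in DBA controls, 86.45, 84.38, 88.48 and 81.13 CPM in DBA ligated, 35.95, 40.86, 45.83 and 39.7 CPM in C57 controls and 78.61, 52.49, 69.52 and 60.17 CPM in C57 ligated libraries. Again ligated and control libraries did not overlap in either strain. Actn1 changed by 0.36 ± 0.10 (SE, adjusted p = 0.0229) in DBA and 0.68 ± 0.11 (SE, adjusted p = 0.00115) in C57. The C57 value was called under every alternative run, whereas the DBA call was lost without the shallow libraries (0.34, adjusted p = 0.0772), without DBA control 3 (adjusted p = 0.0726) or S41 (0.0597) and under the GC offset (0.189).

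Pdlim3, an alpha-actinin-binding PDZ and LIM protein (ALP), had 16.25, 20.24, 18.09 and 16.26 CPM in DBA controls, 20.25, 24.73, 21.32 and 21.74 CPM in DBA ligated, 11.67, 10.07, 10.92 and 10.51 CPM in C57 controls and 17.04, 12.19, 14.85 and 14.57 CPM in C57 ligated libraries. It rose in C57 (0.45 ± 0.12 SE, adjusted p = 0.0201) with no overlap, and the call was lost without C57 control 2 (adjusted p = 0.0637), C57 ligated 1 (0.0872) or C57 ligated 3 (0.0534). The DBA groups were apart as well, with 0.30 ± 0.11 (SE, adjusted p = 0.0558). The related Pdlim1 and Pdlim5 and the PDZ-LIM protein Ldb3 (cypher) were called in neither strain.

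Of the 7 genes of filamin, desmin and the Xin proteins, 2 fell in DBA and none was called in C57. Cryab, alpha B-crystallin, the small heat shock protein that chaperones desmin, had 1160, 996.4, 1248 and 1442 CPM in DBA controls, 959, 838.1, 758.9 and 934.7 CPM in DBA ligated, 1667, 1625, 1440 and 1508 CPM in C57 controls and 1139, 1415, 1445 and 1412 CPM in C57 ligated libraries. The DBA groups did not overlap, and Cryab changed by -0.47 ± 0.11 (SE, adjusted p = 0.0102) in DBA and -0.21 ± 0.11 (SE, adjusted p = 0.234) in C57. The DBA value without the shallow libraries was -0.31 (adjusted p = 0.0946). Nrap, a nebulin-related anchoring protein of the intercalated disc, had 1273, 1353, 1432 and 1431 CPM in DBA controls and 1088, 1148, 1024 and 1170 CPM in DBA ligated libraries, with no overlap. Its change was -0.31 ± 0.08 (SE, adjusted p = 0.0129) in DBA, -0.25 (adjusted p = 0.0733) there without the shallow libraries and 0.01 ± 0.08 (SE, adjusted p = 0.926) in C57, and the DBA call was also lost without S41 (adjusted p = 0.0514). Xirp2, an actin-binding Xin repeat protein, had 1930, 1954, 2722 and 3594 CPM in DBA controls, 2029, 2460, 1793 and 2063 CPM in DBA ligated, 1397, 1655, 1468 and 1447 CPM in C57 controls and 2561, 1574, 1824 and 1925 CPM in C57 ligated libraries. Its estimates had opposite signs, -0.29 ± 0.18 (SE, adjusted p = 0.237) in DBA and 0.40 ± 0.18 (SE, adjusted p = 0.139) in C57, neither was called, and the DBA estimate turned to 0.10 (adjusted p = 0.707) without the shallow libraries. Filamin C (Flnc), desmin (Des), Xirp1 and the co-chaperone Bag3 were called in neither strain.

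Among the 5 stretch and LIM genes, 3 rose in each strain and none fell, with list medians of 0.52 in DBA and 0.47 in C57. Ankrd1 (chr19:36111965-36119844), cardiac ankyrin repeat protein, which binds titin and is induced by load in heart muscle, had 1642, 1960, 2438 and 3711 CPM in DBA controls, 3407, 3957, 3791 and 4021 CPM in DBA ligated, 1343, 1963, 1309 and 1544 CPM in C57 controls and 4630, 3057, 4079 and 2874 CPM in C57 ligated libraries. The C57 groups were far apart, while in DBA the shallow control 4 (3711 CPM) exceeded 1 of the 4 ligated libraries. The change of Ankrd1 was 1.25 ± 0.21 (SE, adjusted p = 0.00228) in C57, called under every alternative run, and 0.64 ± 0.21 (SE, adjusted p = 0.0356) in DBA. Without the shallow libraries the DBA value was 1.07 (adjusted p = 0.0125), beside 1.19 (adjusted p = 0.001) in C57. With all other libraries in place, the DBA call was lost without DBA control 1 (adjusted p = 0.0872), control 2 (0.0577), control 3 (0.0865), S40 (0.0646), S41 (0.07) or S42 (0.0772). Ankrd23, its relative also known as DARP, had 353.2, 478, 323 and 330.4 CPM in DBA controls, 526.7, 517.9, 555 and 554.2 CPM in DBA ligated, 182.8, 254.1, 192.8 and 186.7 CPM in C57 controls and 260.2, 258.4, 213.3 and 324.9 CPM in C57 ligated libraries. In DBA the groups were apart and the change was 0.54 ± 0.14 (SE, adjusted p = 0.0134). That call was lost without DBA control 3 (adjusted p = 0.0555), under the GC offset (0.172) and without the shallow libraries (0.37, adjusted p = 0.147). In C57 the groups overlapped and the change was 0.37 ± 0.14 (SE, adjusted p = 0.0844).

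Fhl1 (chrX:56731761-56793346), a LIM-only protein that binds titin, had 180.7, 184.7, 214.4 and 194.9 CPM in DBA controls, 258.9, 303.1, 275 and 271 CPM in DBA ligated, 129.4, 129.3, 126.9 and 124.3 CPM in C57 controls and 248.2, 156.3, 231.8 and 141.8 CPM in C57 ligated libraries. Ligated libraries lay above controls of the same strain without overlap, although C57 ligated 2 and 4 were close to the C57 controls and far below ligated 1 and 3. Libraries 1 and 3 were also further from the mean of the C57 controls than libraries 2 and 4 for Tnni3, Nebl, Pdlim3, Cmya5, Actn1 and Ankrd1, which with Fhl1 make 7 of the 10 genes called in C57, and for 18 of the 39 genes in all. The share of all genes with this order was not computed. The part of the marker sums of these libraries, given above, in this order was not tested. Fhl1 rose by 0.52 ± 0.14 (SE, adjusted p = 0.0148) in DBA and 0.61 ± 0.14 (SE, adjusted p = 0.01) in C57, and the C57 call held under every alternative run. The DBA value was 0.60 (adjusted p = 0.067) without the shallow libraries. Csrp3, muscle LIM protein of the Z-disc, had 664.4, 822.6, 655.8 and 612.9 CPM in DBA controls, 763.9, 853.1, 810.6 and 920.1 CPM in DBA ligated, 724.7, 854.1, 807.6 and 890.6 CPM in C57 controls and 1186, 1217, 1179 and 964.7 CPM in C57 ligated libraries. It rose in C57 (0.47 ± 0.11 SE, adjusted p = 0.00911), with no overlap and under every alternative run, and its DBA change was 0.28 ± 0.11 (SE, adjusted p = 0.0603) with groups that overlapped. The LIM-only gene Fhl2 was called in neither strain. The 3 genes whose log2 CPM ran most like that of Ankrd1 over the 16 libraries were Fhl1 (Pearson r = 0.809), Actn1 (0.796) and Pdlim3 (0.639). These libraries span both strains and both treatments, so r also holds the differences between groups.

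Of the 4 assembly and turnover genes, Smyd1 and Trim63 fell in DBA and none was called in C57. Trim63, the muscle ubiquitin ligase MuRF1, had 236.1, 189.5, 277.4 and 344.3 CPM in DBA controls, 173.9, 169, 178.4 and 177.6 CPM in DBA ligated, 214.9, 223.7, 195 and 191.3 CPM in C57 controls and 158.2, 189.9, 150.1 and 198.9 CPM in C57 ligated libraries. DBA groups did not overlap, and the change was -0.58 ± 0.14 (SE, adjusted p = 0.00975) in DBA and -0.24 ± 0.14 (SE, adjusted p = 0.246) in C57. Trim63 was highest in the shallow DBA controls 3 and 4, and without the shallow libraries its DBA change was -0.28 (adjusted p = 0.11). Smyd1, a lysine methyltransferase needed for myofibril assembly, had 710.7, 588.7, 804.9 and 799.6 CPM in DBA controls and 567, 530.5, 519.7 and 533.6 CPM in DBA ligated libraries, again with no overlap. Its change was -0.43 ± 0.11 (SE, adjusted p = 0.0118) in DBA, -0.27 (adjusted p = 0.0855) there without the shallow libraries and -0.10 ± 0.11 (SE, adjusted p = 0.544) in C57. The myosin chaperone Unc45b and the MuRF2 gene Trim55 were called in neither strain. Settings that left out neither the shallow libraries nor 1 library at a time also ended ligation calls. Of these settings, the fit of only the groups compared and the replicate block left out the libraries of the other groups. In DBA these were Mybpc3, Myoz2, Synpo2l, Actn1 and Ankrd23 under the GC offset (adjusted p 0.0599 to 0.499), Tmod1, Myom1, Actn2, Tcap, Myoz2, Nrap and Smyd1 with library totals (0.0523 to 0.413), and Tnnt2, Lmod2, Lmod3, Tmod1, Myom1, Actn2, Myoz2 and Ankrd1 with only the DBA groups in the fit (0.0564 to 0.108). In C57 Nebl and Synpo2l lost their call under the GC offset (0.126 to 0.204) and Tnnt2 and Nebl with library totals (0.0601 to 0.224). Nebl, whose C57 change was -0.14 and -0.12 in those fits, also lost it with no filter (0.05029), with the size factors of DESeq2 (0.0506) and with the replicate block (0.0829). Over the 16 genes called in neither strain, log2 fold changes ran from -0.46 to 0.29 in DBA and from -0.38 to 0.40 in C57.

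**Figure D4:**
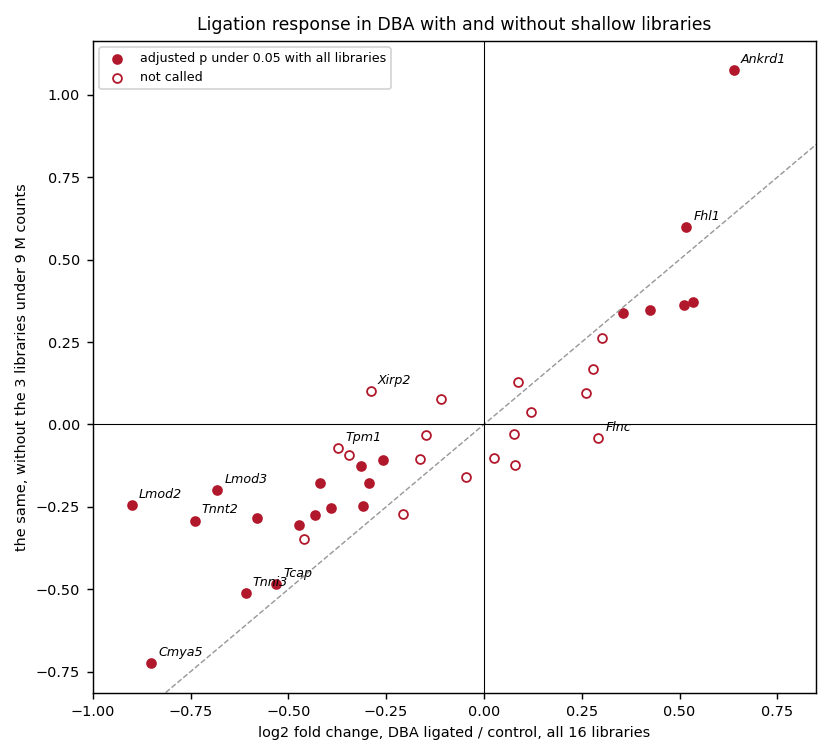
Log2 fold change of DBA ligated over control libraries for the 39 genes, with all 16 libraries (x axis) and without the 3 libraries under 9 M counts (y axis), where the dashed line marks equal values and filled points were called with all libraries. Lmod2 (-0.90 and -0.24), Lmod3 (-0.68 and -0.20) and Tnnt2 (-0.74 and -0.29) lie well above the line on the left, Cmya5 (-0.85 and -0.72) lies close to it, and Ankrd1 (0.64 and 1.07) lies above it on the right.

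The difference between the strains' responses (DBA minus C57) was called for none of the 39 genes and for none of all genes (0%) by edgeR. At an unadjusted p under 0.05 it held 4 of the 39 genes (10.3%) and 782 of all genes (5.79%), and DESeq2 called 17 genes of which 0 belonged to the 39. The 4 genes were Xirp2 (-0.69 ± 0.25 SE, adjusted p = 0.819), Nrap (-0.32 ± 0.11 SE, adjusted p = 0.784), Actn1 (-0.33 ± 0.15 SE, adjusted p = 0.846) and Smyd1 (-0.33 ± 0.15 SE, adjusted p = 0.849). Ankrd1 stood at -0.61 ± 0.30 (SE, adjusted p = 0.849), and at -0.11 without the shallow libraries. The estimate was negative for 31 of the 39 genes, with a median of -0.15 beside -0.01 over all genes. A gene called after ligation in DBA and not in C57, such as Trim63 or Cryab, is therefore not shown to respond differently in the strains.

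Between the strains, Myom1, Myom2, Tcap, Tmod1 and Pdlim1 were lower and Ankrd23, Pdlim3 and Pdlim5 higher in DBA with and without ligation. In controls 10 of the 39 genes were higher and 11 lower in DBA than in C57 (53.8%), beside 22.5% of all genes, 12.6% higher and 9.92% lower. In ligated mice 7 were higher and 13 lower (51.3%), beside 19.4% of all genes, 10.6% higher and 8.81% lower. The median log2 ratio of the 39 genes was -0.06 in controls and -0.20 in ligated mice, where all genes had medians of 0.02 and 0.01. DBA reads were counted on a reference of C57BL/6 origin, which can lower DBA counts, and the part of this in each gene was not tested. The fit without the shallow libraries gave 6 higher and 13 lower in controls, with Tpm1 and Nebl newly called, beside 1493 and 1164 of all genes (1696 and 1339 with all libraries). In ligated mice it gave 7 and 17, with Mybpc3, Myoz2, Flnc and Fhl2 newly called, beside 2220 and 2122 of all genes (1434 and 1190 with all libraries). With library totals only, the counts were 12 and 9 in controls and 7 and 9 in ligated mice, where the median of all genes moved by 0.11, and the higher share of all calls went from 55.9 to 68.7% and from 54.6 to 74%. The GC offset took that share to 41.2% and 40.4%, with 9 and 12 and then 6 and 17 of the 39 genes higher and lower.

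**Figure D5:**
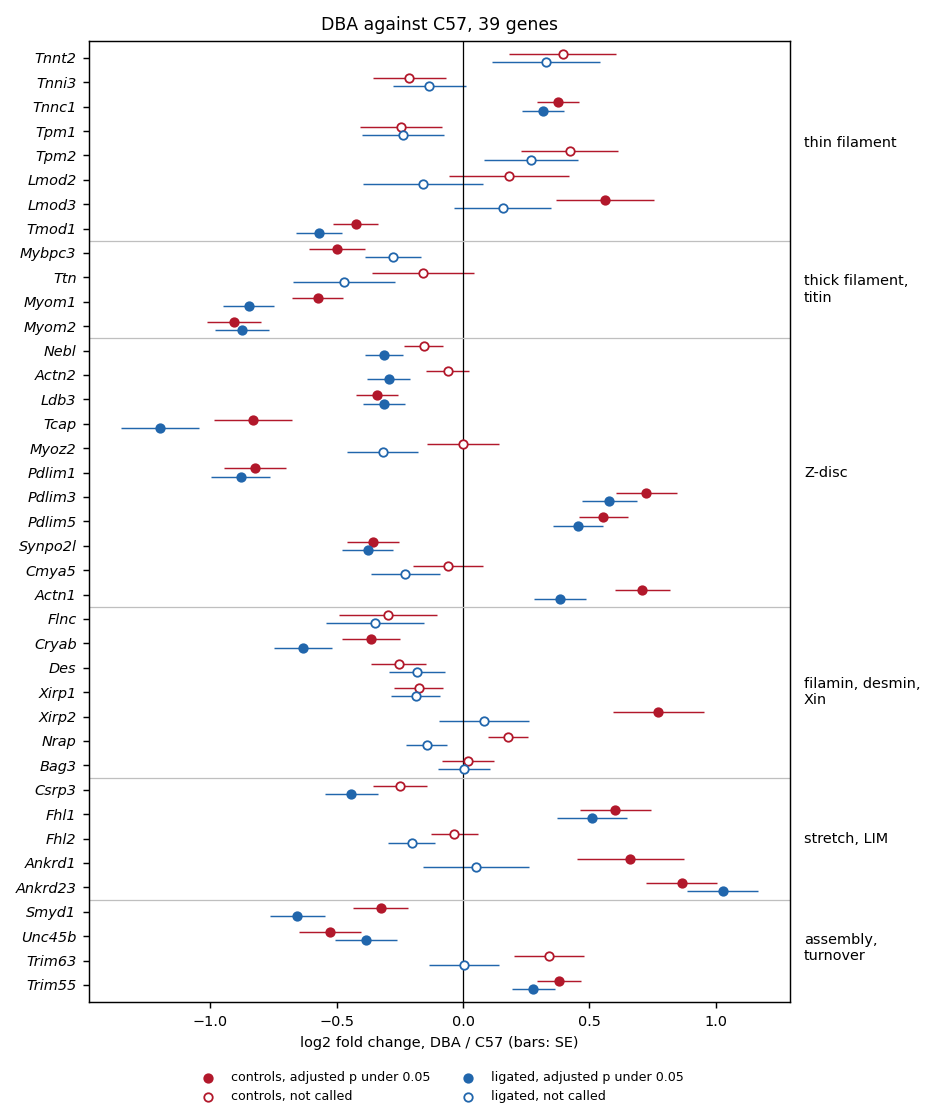
Log2 ratio of DBA over C57 (x axis, bars are the SE) for each of the 39 genes, in controls (red) and in ligated libraries (blue), grouped by role, with filled points called at an adjusted p under 0.05. Myom2, Tcap and Pdlim1 lie furthest left, at -1.20 for Tcap in ligated libraries, and Ankrd23 and Pdlim3 lie to the right in both states.

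The myomesin genes Myom1 and Myom2 were lower in DBA, whereas Myom3, another myomesin gene, from the list of other sarcomere genes, was not called between the strains (-0.06 ± 0.23, adjusted p = 0.879 in controls and 0.11 ± 0.19, adjusted p = 0.767 in ligated mice). Myom2 had 1232, 1303, 1512 and 1730 CPM in DBA controls, 1343, 1407, 1170 and 1430 CPM in DBA ligated, 2767, 2580, 2794 and 2693 CPM in C57 controls and 2500, 2576, 2148 and 2579 CPM in C57 ligated libraries. All 8 DBA libraries lay below all 8 C57 libraries, and the log2 ratio was -0.91 ± 0.11 (SE, adjusted p = 8.16e-06) in controls and -0.87 ± 0.11 (SE, adjusted p = 9.8e-06) in ligated mice. Myom1, whose values are given above, stood at -0.58 ± 0.10 (SE, adjusted p = 0.00052) in controls and -0.85 ± 0.10 (SE, adjusted p = 8.6e-06) in ligated mice, with no overlap in either. Tcap was lower in DBA, with -0.83 ± 0.15 (SE, adjusted p = 0.000737) in controls and -1.20 ± 0.15 (SE, adjusted p = 1.76e-05) in ligated mice, without overlap. Tmod1 was also lower, with -0.43 ± 0.09 (SE, adjusted p = 0.00244) in controls and -0.57 ± 0.09 (SE, adjusted p = 0.000172) in ligated mice, without overlap. Myom2 and Tcap were called in both states under every alternative run, and Myom1 and Tmod1 in ligated mice.

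The PDZ-LIM genes split by strain in both directions. Pdlim1 (CLP36) had 54.64, 49.35, 41.66 and 38.16 CPM in DBA controls, 62.11, 54.46, 47.48 and 58.04 CPM in DBA ligated, 88.13, 94.75, 72.17 and 73.71 CPM in C57 controls and 103.9, 93.3, 102.1 and 109.5 CPM in C57 ligated libraries, and all 8 DBA libraries lay below all 8 of C57. It was lower in DBA, with -0.82 ± 0.12 (SE, adjusted p = 8.44e-05) in controls and -0.88 ± 0.12 (SE, adjusted p = 2.73e-05) in ligated mice. Pdlim5 (ENH) had 1224, 1206, 1202 and 1373 CPM in DBA controls, 1334, 1376, 1276 and 1333 CPM in DBA ligated, 888.6, 883.4, 778 and 854.8 CPM in C57 controls and 974.6, 860.9, 1185 and 858 CPM in C57 ligated libraries. Here every DBA library lay above every C57 library, and the log2 ratio was 0.56 ± 0.10 (SE, adjusted p = 0.000506) in controls and 0.46 ± 0.10 (SE, adjusted p = 0.00269) in ligated mice. Pdlim3 was higher in DBA as well, with 0.72 ± 0.12 (SE, adjusted p = 0.000284) and 0.58 ± 0.11 (SE, adjusted p = 0.000946). These 3 genes were called in both states under every alternative run. Ldb3 was lower in DBA, with -0.34 ± 0.08 (SE, adjusted p = 0.00658) in controls and -0.31 ± 0.08 (SE, adjusted p = 0.0123) in ligated mice.

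Of the 5 stretch and LIM genes 3 were higher in DBA controls, and 2 higher and 1 lower in DBA ligated mice. Ankrd23 was higher in DBA in both states, with 0.86 ± 0.14 (SE, adjusted p = 0.000249) in controls and 1.03 ± 0.14 (SE, adjusted p = 3.68e-05) in ligated mice, no overlap, and a call under every alternative run. Actn1 was higher by 0.71 ± 0.11 (SE, adjusted p = 0.000122) in controls, called under every alternative run, and by 0.38 ± 0.10 (SE, adjusted p = 0.0139) in ligated mice, where the call was lost without C57 ligated 2 (adjusted p = 0.0517). Fhl1 was higher by 0.60 ± 0.14 (SE, adjusted p = 0.00456) in controls and 0.51 ± 0.14 (SE, adjusted p = 0.0138) in ligated mice. Its call in controls was lost without the shallow libraries (0.53, adjusted p = 0.0762) and that in ligated mice without C57 ligated 2 (adjusted p = 0.0543). Ankrd1 was higher in DBA controls by 0.66 ± 0.21 (SE, adjusted p = 0.031) with groups that overlapped. It stood at 0.17 (adjusted p = 0.619) without the shallow libraries, and the call was also lost without C57 control 1 (adjusted p = 0.0712), 3 (0.0929) or 4 (0.0682) or DBA control 3 (0.0589) or 4 (0.125). In ligated mice Ankrd1 stood at 0.05 ± 0.21 (SE, adjusted p = 0.903). Xirp2 was higher in DBA controls by 0.77 ± 0.18 (SE, adjusted p = 0.00466) with no overlap, but at 0.35 (adjusted p = 0.145) without the shallow libraries, and at 0.08 ± 0.18 (SE, adjusted p = 0.816) in ligated mice. Csrp3 was lower in DBA among ligated mice, with -0.44 ± 0.11 (SE, adjusted p = 0.00609) and no overlap, and was not called in controls.

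Tnnc1, the calcium-binding troponin subunit, had 3142, 2876, 3354 and 3174 CPM in DBA controls, 2832, 2764, 2849 and 2761 CPM in DBA ligated, 2753, 2455, 2160 and 2305 CPM in C57 controls and 2196, 2303, 2181 and 2318 CPM in C57 ligated libraries. It was higher in DBA in both states, without overlap, by 0.38 ± 0.08 (SE, adjusted p = 0.00335) in controls and 0.32 ± 0.08 (SE, adjusted p = 0.0117) in ligated mice. Lmod3 was called higher in DBA controls (0.56 ± 0.19 SE, adjusted p = 0.0456), with groups that overlapped, and stood at 0.13 (adjusted p = 0.506) without the shallow libraries. Leaving out any 1 of 12 libraries ended that call, up to an adjusted p of 0.185 without DBA control 4. Trim55 was higher in DBA in both states, by 0.38 ± 0.09 (SE, adjusted p = 0.00386) in controls and 0.28 ± 0.08 (SE, adjusted p = 0.0272) in ligated mice, where the call was lost without C57 ligated 2 (adjusted p = 0.0795), C57 ligated 3 (0.077), S40 (0.0712) or S41 (0.0789). Mybpc3 was lower in DBA controls, with -0.50 ± 0.11 (SE, adjusted p = 0.00326), with no overlap, and stood at -0.28 ± 0.11 (SE, adjusted p = 0.0904) in ligated mice, without a call.

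Cryab, Smyd1, Unc45b and Synpo2l were lower in DBA in both states. Cryab stood at -0.37 ± 0.11 (SE, adjusted p = 0.0289) in controls, with overlap, and -0.63 ± 0.11 (SE, adjusted p = 0.000637) in ligated mice, with none. The call in controls was lost without C57 control 1 (adjusted p = 0.0635), 2 (0.0692) or 4 (0.05019) or DBA control 1 (0.0585) or 2 (0.0569). Smyd1 stood at -0.33 ± 0.11 (SE, adjusted p = 0.0395) in controls and -0.66 ± 0.11 (SE, adjusted p = 0.000284) in ligated mice, without overlap. Its call in controls ended without C57 control 1 (adjusted p = 0.117) or 2 (0.0933) or DBA control 1 (0.0684) or 2 (0.0792). Unc45b stood at -0.53 ± 0.12 (SE, adjusted p = 0.00475) and -0.38 ± 0.12 (SE, adjusted p = 0.0336), and the latter call was lost without C57 ligated 2 (adjusted p = 0.117) or 4 (0.059) or DBA ligated 1 (0.0849), S40 (0.102) or S41 (0.0596). Synpo2l stood at -0.36 ± 0.10 (SE, adjusted p = 0.0185) and -0.38 ± 0.10 (SE, adjusted p = 0.0134), and the calls were lost without C57 control 2 (adjusted p = 0.0712) or DBA control 3 (0.0668) in controls and without S41 (0.0569) in ligated mice. Nebl and Actn2 were lower in DBA in ligated mice, with -0.31 ± 0.08 (SE, adjusted p = 0.00681) and -0.30 ± 0.09 (SE, adjusted p = 0.0198), and the call of Actn2 was lost without C57 ligated 4 (adjusted p = 0.05037) or S40 (0.0558).

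Settings that kept all libraries ended further strain calls. In controls these were Lmod3 and Cryab under the GC offset (adjusted p 0.0628 to 0.0668), Synpo2l and Smyd1 with library totals (0.05008 to 0.0637), and Lmod3, Ldb3, Synpo2l, Cryab, Ankrd1 and Smyd1 with only the control groups in the fit (0.0553 to 0.178). The replicate block, fitted with only the control groups and with numbers that did not pair the libraries, ended 13 calls in controls (0.0834 to 0.365). They were those of Tnnc1, Lmod3, Tmod1, Mybpc3, Myom1, Ldb3, Synpo2l, Cryab, Xirp2, Ankrd1, Smyd1, Unc45b and Trim55. Among them Lmod3, Ldb3, Synpo2l, Cryab, Ankrd1 and Smyd1 also lost the call with only the control groups and no block. In ligated mice Actn2, Ldb3, Synpo2l and Unc45b lost their call with library totals (0.0745 to 0.159), where Ldb3 stood at -0.20, Tnnc1 under the GC offset (0.0595) and Fhl1 with only the ligated groups (0.0666).

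Other genes of the same structures were read from 4 further lists. Of 22 other sarcomere genes 21 were tested, and 2 rose and 8 fell in DBA (47.6%), and 2 rose and 2 fell in C57 (19%). Of all genes 24.9% were called in DBA and 13.3% in C57. The alpha myosin heavy chain gene Myh6 (-0.69 ± 0.12, adjusted p = 0.00277 in DBA and -0.40 ± 0.12, adjusted p = 0.0338 in C57) and the ventricular light chain gene Myl2 (-0.63 ± 0.12, adjusted p = 0.00406 and -0.63 ± 0.12, adjusted p = 0.00354) fell in both. In DBA Fhod3 (-0.32 ± 0.08, adjusted p = 0.0102) and Capza2 (-0.31 ± 0.08, adjusted p = 0.0114), which act on actin filaments, also fell. The skeletal actin gene Acta1 rose in both (1.17 ± 0.30, adjusted p = 0.012 in DBA and 2.75 ± 0.32, adjusted p = 0.000276 in C57), and stood at 0.72 (adjusted p = 0.238) in DBA without the shallow libraries. The beta myosin heavy chain gene Myh7 rose in C57 (1.71 ± 0.29, adjusted p = 0.00243) and stood at -0.38 ± 0.29, adjusted p = 0.331 in DBA. Of the 8 that fell in DBA, Myl7 (-2.50 ± 0.76, adjusted p = 0.0257) and Mybphl (-2.24 ± 0.74, adjusted p = 0.036) are also among the atrial markers. This list gave, without the shallow libraries, 0 higher and 2 lower in DBA (Myh6 and Myl2) and 3 and 4 in C57. Leaving out 1 library at a time gave 0 to 4 higher and 4 to 9 lower in DBA and 2 higher and 1 to 4 lower in C57. The C57 adjusted p of Myh6 then reached 0.111.

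Of 24 Z-disc partners 22 were tested, with 6 higher and 7 lower in DBA and 5 higher and 1 lower in C57. This was 59.1% in DBA and 27.3% in C57, beside 24.9% and 13.3% of all genes. Actn4, a non-muscle alpha-actinin, rose in both (0.39 ± 0.07, adjusted p = 0.00367 in DBA and 0.29 ± 0.07, adjusted p = 0.0145 in C57), as did Smpx, a small muscle protein (0.44 ± 0.10, adjusted p = 0.00928 and 0.45 ± 0.10, adjusted p = 0.0111). The calcineurin subunit gene Ppp3cb fell in both (-0.29 ± 0.07, adjusted p = 0.00756 and -0.26 ± 0.07, adjusted p = 0.0174). Synpo2 fell in DBA (-0.51 ± 0.12, adjusted p = 0.00849) and Fhl3 rose in C57 (0.66 ± 0.17, adjusted p = 0.0187). The DBA calls of Smpx (0.34, adjusted p = 0.0717) and Synpo2 (-0.42, adjusted p = 0.0568) were lost without the shallow libraries. With 1 library left out, the C57 adjusted p reached 0.0519 for Smpx, 0.0626 for Actn4, 0.0745 for Ppp3cb and 0.0703 for Fhl3. Without the shallow libraries the list gave 1 higher and 2 lower in DBA and 6 and 3 in C57, and 1 library at a time gave 3 to 7 higher and 3 to 8 lower in DBA and 0 to 6 and 0 to 3 in C57. All 17 chaperone and protease genes of the sarcomere were tested, with 1 higher (Capn2, 0.32 ± 0.08, adjusted p = 0.012) and 2 lower (Hspb6, -1.13 ± 0.28, adjusted p = 0.0114, and Dnajb6, -0.30 ± 0.09, adjusted p = 0.0211) in DBA and 1 lower (Hspa8, -0.40 ± 0.11, adjusted p = 0.0248) in C57. The shares called, 17.6% in DBA and 5.88% in C57, lay below those of all genes (24.9% and 13.3%). Of the 17 genes, 0 were called in DBA and 1 in C57 without the shallow libraries, and 1 library at a time gave 1 to 3 in each direction in DBA and 0 to 1 in C57.

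Of 17 stretch-response genes 16 were tested, with 5 higher and 2 lower in DBA and 5 higher and 0 lower in C57. This was 43.8% in DBA and 31.2% in C57, beside 24.9% and 13.3% of all genes. The natriuretic peptide gene Nppa (1.44 ± 0.25, adjusted p = 0.00282 in DBA and 2.30 ± 0.26, adjusted p = 0.000276 in C57), the matricellular gene Ctgf (0.96 ± 0.18, adjusted p = 0.00406 and 0.83 ± 0.18, adjusted p = 0.00714) and the mechanosensitive channel gene Piezo1 (0.67 ± 0.14, adjusted p = 0.00521 and 0.61 ± 0.14, adjusted p = 0.00892) rose in both. Tead1, a TEAD factor gene, fell in DBA (-0.47 ± 0.10, adjusted p = 0.00658) and stood at -0.00 ± 0.10, adjusted p = 0.982 in C57. Nppb, the B-type natriuretic peptide gene, rose in both (1.24 ± 0.30, adjusted p = 0.0105 in DBA and 1.01 ± 0.30, adjusted p = 0.0336 in C57), and without the shallow libraries it stood at 1.18 (adjusted p = 0.148) and 1.08 (adjusted p = 0.0902). The list gave, without the shallow libraries, 3 higher and 1 lower in DBA and 4 and 0 in C57. With 1 library at a time left out, 5 rose and 1 to 3 fell in DBA, and 3 to 5 rose and 0 fell in C57. The medians of the 4 lists in DBA were -0.31, -0.01, 0.05 and 0.08 in the order given, and in C57 -0.07, 0.03, 0.06 and 0.13. All genes had medians of 0.03 in DBA and 0.02 in C57.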

How the data were processed

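PolyA RNA of 16 mice was read as 1 library each. The authors deposited 1 table of raw read counts per gene, per the file headers, which holds 13842 genes. The submitters' processing notes name STAR 2.5.2b, the mm10 build, featureCounts, Subread 1.5.1 and edgeR. The annotation and strand setting were not given in the sources used here, so overlapping or antisense genes and near-identical copies are uncertain. The table's log2 fold changes and its p-values, as false discovery rates, are those of the authors, per the file headers, and were read only to count calls. The other 16 per-sample columns, with normalized log values, were not used. Gene lengths and coordinates come from the same table.

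Counts were filtered by group with edgeR 4.0.16 in R 4.3.3, which left 13504 genes, and scaled by TMM. A model of 4 group means over all 16 libraries (prior degrees of freedom 5.45) was tested in 5 contrasts by the robust quasi-likelihood test, adjusted by the Benjamini-Hochberg method. The test had been tried on simulated counts. Counting error is largest in the shallowest library (4.92 M counts). The labels give no shared cage, litter or day, and the same replicate numbers in different groups did not pair libraries (correlations of deviations -0.0675 to 0.0102 for ligation in C57 and -0.257 to -0.0367 for the strains' controls).

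Alternatives were DESeq2 1.42.0 with its size factors, those size factors in edgeR, library totals, no filter, an offset from a spline (5 degrees of freedom) over gene GC content, only the groups compared, no libraries under 9 M counts, a replicate block and leaving out each library. The replicate block was fitted with only the groups compared. The fit without shallow libraries and with the GC offset together was chosen after seeing the data. All 39 genes had a GC value. Likeness to Ankrd1 was computed on log2 CPM with a pseudocount of 0.5. The 39 genes and all lists were chosen with earlier results of these data known. By the rule for named genes, values in every library are given for the called genes with the smallest p, up to 5 per direction and contrast, and up to 4 called genes are named per further list and ligation contrast. Genes named beyond it (Lmod2, Lmod3, Actn2, Nrap, Smyd1 and Xirp2) are described because their values move with the shallow libraries or differ in sign.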

Additional observations from a re-analysis of the deposited data

Results flagged for a closer look

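In 6 of 156 sets of 4 libraries (39 genes in 4 groups) the highest or lowest value stood apart from the other 3 by more of the whole range than Dixon's critical value for 4 samples allows, where chance alone gives about 1 in 20. C57 ligated 1 was low for Myoz2 (1362 CPM, the others 1537 to 1567) and for Cryab (1139 CPM, the others 1412 to 1445). C57 ligated 4 was low for Csrp3, with 964.7 CPM against 1179 to 1217. C57 control 1, a shallow library, was low for Fhl2 with 1198 CPM against 1357 to 1374. C57 control 2 was high for Ankrd23, with 254.1 CPM against 182.8 to 192.8. The shallow DBA control 4 was high for Pdlim5, with 1373 CPM against 1202 to 1224.

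The ligation estimates of Xirp2 had opposite signs in the strains, but edgeR called neither (adjusted p = 0.237 in DBA and 0.139 in C57). DBA minus C57 was -0.69 on the log2 scale, and the interaction term of edgeR did not call it (adjusted p = 0.819). Without the shallow libraries the signs were the same, with 0.10 in DBA and 0.37 in C57, and DBA minus C57 was -0.27.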

How the results depend on the processing

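Counts of the 39 genes, higher and lower, were 6 and 15 for ligation in DBA, 6 and 4 in C57, 10 and 11 for the strains in controls and 7 and 13 in ligated mice. In DBA the higher count was 2 with the GC offset, 10 with library totals, 3 without the shallow libraries and 1 with the GC offset as well, and the lower count was 8 with only the groups compared, 8 with library totals, 2 without the shallow libraries and 5 with the GC offset as well. In C57 library totals gave 11 and 2. In controls the higher count was 6 without the shallow libraries and 5 with the GC offset as well, and the lower count was 7 with only the groups compared. In ligated mice the lower count was 21 without the shallow libraries and with the GC offset. Leaving out 1 library gave 3 to 8 and 8 to 17 in DBA, 5 to 8 and 2 to 5 in C57, 8 to 13 and 8 to 11 in controls, and 4 to 7 and 11 to 13 in ligated mice. The interaction gave 0 of the 39 genes in all alternatives run. The cause of these shifts was not tested. The replicate block, with only the groups compared in the fit, gave 6 and 4 in C57 and 5 and 3 in controls, and its numbers did not pair the libraries. The same groups without the block gave 8 and 5 in C57 and 8 and 7 in controls. No paired fit was possible for the contrasts with DBA ligated mice because the mouse numbers of 3 of their 4 columns do not match the labels, which leaves 1 column with a replicate number.

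Estimates that were not called changed sign. Without the shallow libraries this held for 6 of the 39 genes in DBA (among them Flnc, from 0.29 to -0.04), 4 in C57, 2 between controls (Lmod2, from 0.18 to -0.35, and Fhl2) and 0 between ligated mice, and none of these was called in either fit. Xirp2 in DBA was 0.10 without the shallow libraries and 0.11 with the GC offset as well. In C57 library totals gave Tmod1 0.0042, Myom1 0.0745, Actn2 0.0556, Myoz2 0.014 and Smyd1 0.0142. Without the shallow libraries C57 gave Myom1 0.015 and Myoz2 0.0197, the latter 0.0403 with the GC offset as well. Nrap in C57 was -0.109 with the GC offset, -0.0329 without the shallow libraries and -0.14 with both. Ankrd1 between ligated strains was -0.0054 with the GC offset and -0.0081 without the shallow libraries as well. With 1 library left out, C57 values ran from -0.0819 to 0.0154 for Myom1, -0.191 to 0.0201 for Myoz2 and -0.0325 to 0.0574 for Nrap, and those between ligated strains from -0.0131 to 0.232 for Xirp2 and -0.0485 to 0.184 for Ankrd1.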
